A study of Schizosaccharomyces pombe with 32 samples.

Results

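The comparison set fission yeast cells at 4 and 5 h without nitrogen against the same cells at 1 and 2 h, in the condition that received no pheromone. It rests on 8 of the 32 arrays of the series: 4 middle arrays (4 and 5 h) and 4 early arrays (1 and 2 h), chosen by strain and hour alone. Each array is a spotted 2-colour slide on which polyA RNA of starved Schizosaccharomyces pombe (Cy5) was hybridised with that of its own strain in growth (Cy3). All 8 arrays used the strain labelled L972, grown from a single colony in rich YES liquid, washed, and moved to EMM2-N, a minimal medium lacking a nitrogen source. Their array numbers fall into 2 series, each holding every hour from 1 to 8 h, called series 1 and series 2. The same hours with P-factor (8 arrays, the strain labelled CRL672, 0.5 ug per ml of synthetic P-factor in the same starvation medium) served as the second condition. Strain and pheromone changed together there and cannot be told apart. The labels say that the experiment was repeated in each condition but not that the repeats were separate cultures, so the p-values measure the spread between these arrays. Values are log2 ratios of starved over growing cells after centring each array on its median, and a difference is the mean at 4 and 5 h minus the mean at 1 and 2 h, so that a positive difference means higher at 4 and 5 h.

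Fission yeast answers nitrogen loss in stages. Growth functions such as ribosome production are cut first, cells divide and stop in G1 with unreplicated DNA, and the transcription factor Ste11 then switches on the genes of mating and meiosis. Heterothallic cells are either M or P: M cells secrete the lipid-modified peptide M-factor and carry the receptor for P-factor, and P cells do the reverse. Whether a lower ratio in a culture comes from fewer cells of a kind or from less RNA per cell cannot be told apart in bulk RNA.

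A test with limma, with a mean for each hour and condition and the array series as a block, was made on 4786 genes, and a gene was called where the adjusted p was below 0.05. The difference was called for 1238 genes, 25.9% of those tested, with 773 higher at 4 and 5 h (16.2%) and 465 lower (9.72%). The difference was called and at least 2-fold for 254 genes (5.31%), with 3.22% of genes higher and 2.09% lower. The arrays of the periods did not overlap for 784 genes (16.4%), with the middle arrays above for 547 (11.4%) and below for 237 (4.95%). The median difference of all genes was 0.062. With the values as deposited, without centring, 627 genes were called higher and 624 lower, and after quantile normalization 539 and 510. Without the series as a block 543 genes were called, and with only series 2 or only series 1 the numbers were 481 and 379. Within an hour the series correlated at 0.854 to 0.901 over genes, where genes are not independent replicates. The series stood apart from each other: on the first principal component of the 8 arrays (42.8% of the variance), series 1 lay at 24.69 and 31.48 at 4 and 5 h, against -6.19 and 1.42 at 1 and 2 h, and series 2 lay at -0.12 and 4.98, against -30.16 and -26.1. Hour and series both moved along this axis, and the shift between periods ran the same way in each series.

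**Figure D1:**
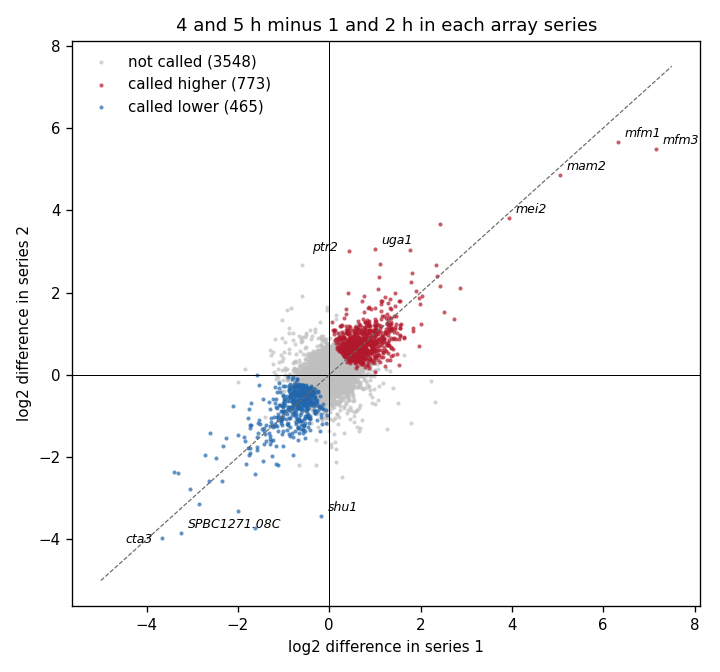
Each point is a gene, placed by its log2 difference (4 and 5 h minus 1 and 2 h) in series 1 (x axis) and in series 2 (y axis); red points were called higher (773), blue points lower (465) and grey points were not called (3548), and the dashed line marks equal values. mfm1, mfm3, mam2 and mei2 stand far above 0 in both series, cta3 and SPBC1271.08C far below, while ptr2 and shu1 owe their difference mostly to series 2.

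The largest rises were in genes by which M cells send and receive pheromone. Of 7 M cell genes 6 rose and none fell, with a median difference of 2.50, and of 38 mating genes 15 rose and 2 fell, with a median of 0.45. The shares that rose, 85.7% and 39.5%, compare with 16.2% of all genes. Of the mating genes 5.3% fell, against 9.72% of all genes. The M cell list leaves out mam3, which lets M cells adhere to P cells. It was not called, at 0.49 ± 0.32 (adjusted p = 0.27). mfm1 and mfm3 encode M-factor precursors. mfm1 stood at 4.74, 8.88, 5.24 and 7.17 at 4 and 5 h, against 0.38, 0.58, 0.23 and 0.86 at 1 and 2 h. The groups did not overlap, the lowest middle array lay far above the highest early array, and the difference was 5.99 ± 0.40 (adjusted p = 4.02e-09), a 63.8-fold rise. mfm3 had 7.14, 8.62, 5.18 and 6.79 at 4 and 5 h, against 0.88, 0.59, 0.23 and 0.75 at 1 and 2 h, again without overlap, and a difference of 6.32 ± 0.48 (adjusted p = 1e-08). The mfm genes encode near-identical peptides, so the probes may share signal and the values of single mfm genes are uncertain.

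mam2, the receptor of M cells for P-factor, had log2 ratios of 4.63, 5.52, 4.63 and 5.33 at 4 and 5 h, against -0.08, 0.15, 0.13 and 0.09 at 1 and 2 h. The early arrays were all within 0.15 of the level in growing cells, and the rise was 4.96 ± 0.38 (adjusted p = 1.04e-08). mam1 encodes the transporter that exports M-factor. Its values were 3.41, 3.48, 3.23 and 3.94 at 4 and 5 h, against 0.50, 0.64, 1.62 and 1.31 at 1 and 2 h, with a difference of 2.50 ± 0.24 (adjusted p = 3.29e-07). The third gene of M-factor production with a large rise, mam4, encodes the enzyme that methylates the lipid-modified peptide. It had 0.86, 0.92, 0.94 and 0.81 at 4 and 5 h, against -1.63, -1.26, -1.90 and -1.66 at 1 and 2 h, which places it below growing cells early and above them in the middle period on every array. The difference was 2.50 ± 0.17 (adjusted p = 1.88e-09).

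mat1-Mc, the mating type gene that determines M cells, stood at 2.22, 2.56, 1.91 and 1.92 at 4 and 5 h, against 0.30, 0.88, -1.21 and 0.10 at 1 and 2 h, and rose by 2.14 ± 0.27 (adjusted p = 7.45e-06). Its sequence also lies at a silent copy, so the source of its signal is uncertain. Of the P cell genes, map3, the receptor for M-factor, differed by 0.07 ± 0.23 (adjusted p = 0.856) and sxa1, a protease that acts on M-factor, by -0.17 ± 0.18 (adjusted p = 0.523). Neither passed the test, and these 2 were the only genes measured of the 9 names on the P cell list. The carboxypeptidase gene sxa2, whose product degrades P-factor, rose by 0.96 ± 0.17 (adjusted p = 0.00026), although no P-factor was given: 0.62, 0.66, 0.45 and 0.62 at 4 and 5 h, against -0.10, -0.20, -0.18 and -1.03 at 1 and 2 h. All 4 middle arrays lay above all early ones.

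Signalling genes of the mating response rose as well. ste11, the transcription factor of mating and early meiosis, had 2.42, 2.60, 2.72 and 2.14 at 4 and 5 h, against -0.69, 0.97, -0.76 and 0.82 at 1 and 2 h. The 1 h arrays lay below growing cells and the 2 h arrays above them in both series, so the early period is itself a rise within which ste11 was already changing. Its difference was 2.39 ± 0.15 (adjusted p = 1.69e-09), 5.23-fold. rgs1, a regulator of G-protein signalling that damps the pheromone response, had 3.03, 2.19 and 2.40 at 4 and 5 h, against 0.88, 0.35, -0.94 and -1.79 at 1 and 2 h. The 5 h array of series 1 has no value for rgs1 and the fit drops it. The rise was 3.07 ± 0.48 (adjusted p = 0.000135). ste4, an adaptor of the MAP kinase cascade, had 2.38, 2.57, 2.31 and 2.28 at 4 and 5 h, against 0.71, 0.68, 0.41 and -0.35 at 1 and 2 h, and rose by 2.02 ± 0.17 (adjusted p = 4.59e-08).

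Other genes of the cascade split. spk1, the MAP kinase, and ste6, the exchange factor for Ras1, were chosen after their values were seen, and rose by 1.67 ± 0.36 (adjusted p = 0.00165) and 1.18 ± 0.22 (adjusted p = 0.000447). gap1, the GTPase-activating protein that turns Ras1 off, fell by 0.80 (adjusted p = 0.0171), and shk1, a p21-activated kinase, fell by 0.64 (adjusted p = 0.0315). The call of gap1 was lost without the 1, 2, 4 or 5 h array of series 2, with -0.64 to -0.76 then, and that of shk1 without the 1, 2, 4 or 5 h array of series 1 or the 1, 2 or 4 h array of series 2, with -0.51 to -0.69 then. For fus1, a formin needed for cell fusion, the values were 2.11, 2.53, 0.34 and 0.41 at 4 and 5 h, against 1.72, 0.74, 1.45 and -0.14 at 1 and 2 h. Series 1 was high and series 2 low at 4 and 5 h, and the difference of 0.40 ± 0.70 did not pass (adjusted p = 0.709).

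**Figure D2:**
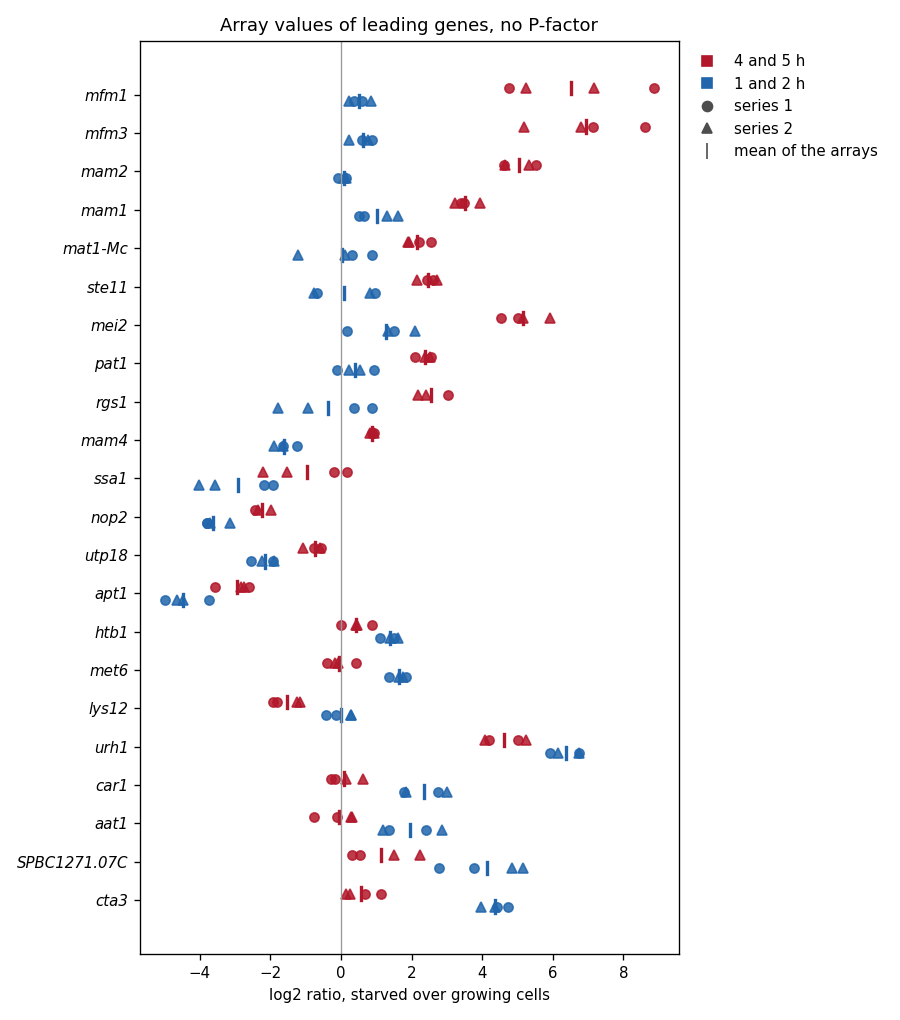
Log2 ratios of 22 genes on the x axis, 1 row a gene, with 4 and 5 h (red) drawn above 1 and 2 h (blue); circles are series 1, triangles series 2, and bars the mean of the arrays. For each of these genes the middle and early arrays do not overlap, except ssa1, where the series lie apart and the periods separate within each series.

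Among the listed meiotic regulators, mei2 and pat1 rose above the rest. Of 20 meiotic regulators 5 rose (3 without the 4 h array of series 2) and none fell, and the median was only 0.03. The 25.0% that rose compares with 16.2% of all genes. mei2, the RNA-binding protein that starts meiosis, had 5.002, 4.53, 5.92 and 5.15 at 4 and 5 h, against 0.17, 1.50, 1.33 and 2.10 at 1 and 2 h. Even the highest early array lay below the lowest middle one, and the rise was 3.88 ± 0.41 (adjusted p = 1.24e-06), 14.7-fold. pat1, the kinase that holds Mei2 inactive in growing cells, rose too, by 1.98 ± 0.22 (adjusted p = 2.64e-06), with 2.53, 2.10, 2.36 and 2.51 at 4 and 5 h, against -0.11, 0.93, 0.24 and 0.54 at 1 and 2 h. The activator of meiosis and its inhibitor were thus both higher at 4 and 5 h. mes1, which restrains the anaphase-promoting complex in meiosis, rose by 0.80 ± 0.15 (adjusted p = 0.000389), rep1, a transcription factor of premeiotic DNA synthesis, by 0.74 ± 0.22 (adjusted p = 0.0182), and red1, which acts in the removal of meiotic transcripts, by 0.60 ± 0.16 (adjusted p = 0.0116). The call of rep1 was lost without the 2 or 5 h array of series 1 or the 4 h array of series 2, with 0.68 to 0.72 then, and that of red1 without the 1, 4 or 5 h array of series 2, with 0.48 to 0.53 then. mei4, the forkhead factor that drives the genes of meiosis proper, had 0.37, 0.79, 0.05 and 0.50 at 4 and 5 h, against 0.63, -0.09, -0.16 and 0.25 at 1 and 2 h. Its groups overlapped and the difference of 0.27 ± 0.23 did not pass (adjusted p = 0.409).

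Genes that act later in meiosis were mostly not called. Of 25 genes of recombination and the chromosome axis none fell, with a median of 0.15. The share that rose is near the 16.2% of all genes, with 4 genes (2 without the 1 or 2 h array of series 1). These were rec6 at 0.95 ± 0.25 (adjusted p = 0.00922) and rec14 at 0.94 ± 0.14 (adjusted p = 7.88e-05), both needed for meiotic double-strand breaks, with sgo1, the protector of centromeric cohesion, at 0.66 ± 0.20 (adjusted p = 0.0217) and swi5, a recombination mediator, at 0.51 ± 0.14 (adjusted p = 0.0121). The call of sgo1 was lost without the 1, 2 or 4 h array of series 1 or the 1 or 5 h array of series 2, with 0.49 to 0.68 then, and that of swi5 without the 1 or 2 h array of series 1, with 0.39 to 0.46 then. rec8, the meiotic cohesin, had 2.04, 0.90, 0.34 and 0.26 at 4 and 5 h, against 0.54, 0.91, 0.67 and 0.63 at 1 and 2 h, and 1 array of series 1 at 4 h stood above the rest. The difference of 0.20 ± 0.36 did not pass (adjusted p = 0.73).

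Meiotic prophase gathers telomeres at the spindle pole body, and 21 genes of that bouquet arrangement and of telomeres were measured. Of these 4 rose and none fell, with a median of 0.18. The 19.0% that rose is near the 16.2% of all genes. The number that rose was 1 without the 1 or 5 h array of series 1 or the 2 or 5 h array of series 2 and 2 without the 2 or 4 h array of series 1 or the 4 h array of series 2. rif1, a telomere protein that also restrains replication origins, rose by 0.76 ± 0.16 (adjusted p = 0.00117), with -0.73, -0.49, -0.90 and -0.83 at 4 and 5 h, against -1.05, -1.53, -1.34 and -2.06 at 1 and 2 h. All 4 middle arrays of rif1 lay above the early ones. poz1, tpz1 and bqt4 rose by 0.50 ± 0.17, 0.44 ± 0.16 and 0.38 ± 0.13, with adjusted p-values of 0.0325, 0.045 and 0.0334. The call of poz1 was lost without the 1 or 5 h array of series 1 or the 1, 2, 4 or 5 h array of series 2, with 0.38 to 0.54 then, that of tpz1 without the 1, 2, 4 or 5 h array of series 1 or the 2, 4 or 5 h array of series 2, with 0.28 to 0.49 then, and that of bqt4 without the 1, 2, 4 or 5 h array of series 1 or the 2 or 5 h array of series 2, with 0.32 to 0.41 then. On values as deposited rif1 alone of the list was called higher.

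The bouquet genes that the study turns on did not pass. bqt1, which tethers telomeres to the spindle pole body, had 0.21, 0.16, -0.29 and -0.48 at 4 and 5 h, against -0.14, 0.08, -0.51 and -0.01 at 1 and 2 h, with a difference of 0.05 ± 0.23 (adjusted p = 0.907). bqt2, its partner, had 0.02, 0.10, -0.04 and -0.01 at 4 and 5 h, against 0.47, 0.82, 0.07 and 0.61 at 1 and 2 h, with a difference of -0.47 ± 0.20 (adjusted p = 0.099). The 4 middle arrays of bqt2 lay near the level of growing cells and 1 early array fell among them. The telomere proteins taz1 and rap1 differed by 0.31 ± 0.15 and -0.30 ± 0.28, the nuclear envelope proteins sad1 and kms1 by -0.13 ± 0.19 and 0.34 ± 0.14, and the dynein heavy chain dhc1, which moves the nucleus in prophase, by 0.18 ± 0.22. Their adjusted p-values were 0.136, 0.467, 0.646, 0.0858 and 0.597. Of 21 sporulation genes 2 rose, a share of 9.5% that is below the 16.2% of all genes, and none fell (median -0.21). The glucan synthase mok12 rose by 0.81 ± 0.21 (adjusted p = 0.00787) and the chitin synthase chs1 by 0.69 ± 0.19 (adjusted p = 0.00976). The call of chs1 was lost without the 2 or 4 h array of series 2, with 0.50 to 0.62 then.

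Genes of ribosome production were far below growing cells early and less so at 4 and 5 h. Of 66 genes of ribosome biogenesis 51 rose and 1 fell, and for 39 all middle arrays lay above all early ones. Of all genes 16.2% rose, and for 11.4% all middle arrays lay above. The median difference of the list was 0.85, and its median level was -1.32 at 4 and 5 h, against -2.04 at 1 and 2 h, so the list remained below growing cells. nop2, a methyltransferase of the large ribosomal RNA, had -2.43, -2.35 and -1.98 at 4 and 5 h, against -3.79, -3.80, -3.72 and -3.15 at 1 and 2 h. The 5 h array of series 1 has no value for nop2 and the fit drops it. The rise was 1.37 ± 0.24 (adjusted p = 0.000276). utp18, of the complex that processes the small-subunit RNA, had -0.76, -0.57, -1.07 and -0.61 at 4 and 5 h, against -2.54, -1.92, -2.25 and -1.89 at 1 and 2 h and rose by 1.40 ± 0.15 (adjusted p = 1.89e-06).

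imp4, nop14, bms1 and nog2, assembly factors of either subunit, rose by 1.34 ± 0.16, 1.34 ± 0.22, 1.25 ± 0.17 and 1.23 ± 0.16. The 1 that fell, drs1, by 0.94 (adjusted p = 0.000129), was put on the list by its name, and in fission yeast that name may stand for another function. By hour the median of the list was -2.13 at 1 h, -1.92 at 2 h, -1.58 at 3 h, -1.42 at 4 h, -1.14 at 5 h and -0.94 at 8 h. The median was higher at each hour through 5 h than at the one before, and stood at -1.15 at 6 h. Of 22 subunits and factors of RNA polymerases I and III 12 rose (54.5%, against 16.2% of all genes) and none fell (median 0.50). Among them rpa34 rose by 1.01 ± 0.20 (adjusted p = 0.000965), rpa2 by 0.85 ± 0.19 (adjusted p = 0.0024), rpc1 by 0.82 ± 0.13 (adjusted p = 0.000125) and rrn3, the initiation factor of polymerase I, by 0.76 ± 0.14 (adjusted p = 0.000552). Under quantile normalization, which lowered the median of all genes to -0.004, the calls were 32 higher and 2 lower for ribosome biogenesis and 4 and 2 for the polymerases.

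The ribosomal proteins themselves showed much less. Of 70 genes of the large subunit 7 rose and none fell, and of 44 genes of the small subunit 6 rose and none fell. The shares that rose, 10.0% and 13.6%, were below the 16.2% of all genes. The medians were 0.29 and 0.30, but 0.06 and 0.10 in series 1, against 0.56 and 0.52 in series 2. By hour the median of the large subunit genes was -2.38 at 1 h, -2.52 at 2 h, -2.4 at 3 h, -2.44 at 4 h, -1.93 at 5 h and -1.45 at 8 h. These means over both series changed little through 4 h, but the series moved in opposite ways. From 2 to 4 h the median went from -2.46 to -2.74 in series 1 and from -2.64 to -2.13 in series 2. Single arrays moved the counts: without the 4 h array of series 1, 14 large and 11 small subunit genes rose, and without the 2 or 4 h array of series 2, 2 and none. Without the 5 h array of series 1 or the 1 h array of series 2 the counts were 4 large and no small, and without the 1 h or 2 h array of series 1 or the 5 h array of series 2 the small subunit count was 4, 3 and 1. Quantile normalization turned both medians, to -0.09 and -0.06. rpl3002 had the largest rise, 1.28 ± 0.30 (adjusted p = 0.00354), and many of these genes have near-identical paralogs, so single values are uncertain. Of 21 translation factors 4 rose (2 without the 1, 2 or 5 h array of series 2) and 1 fell (2 without the 1 or 4 h array of series 2), with a median of 0.18. The 19.0% that rose is near the 16.2% of all genes. The release factor erf1 rose by 0.92 ± 0.13 (adjusted p = 3.93e-05), the elongation factor gene tef5 by 0.60 ± 0.14 (adjusted p = 0.00269), sup35 by 0.52 ± 0.18 (adjusted p = 0.0369) and tif11 by 0.43 ± 0.13 (adjusted p = 0.016), and gcn3 fell by 0.49. The call of sup35 was lost without the 1, 2 or 5 h array of series 1 or the 1, 2, 4 or 5 h array of series 2, with 0.42 to 0.58 then, and that of tif11 without the 4 h array of series 1 or the 1, 2 or 5 h array of series 2, with 0.38 to 0.42 then, and tif11 stood at -0.04 under quantile normalization.

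**Figure D3:**
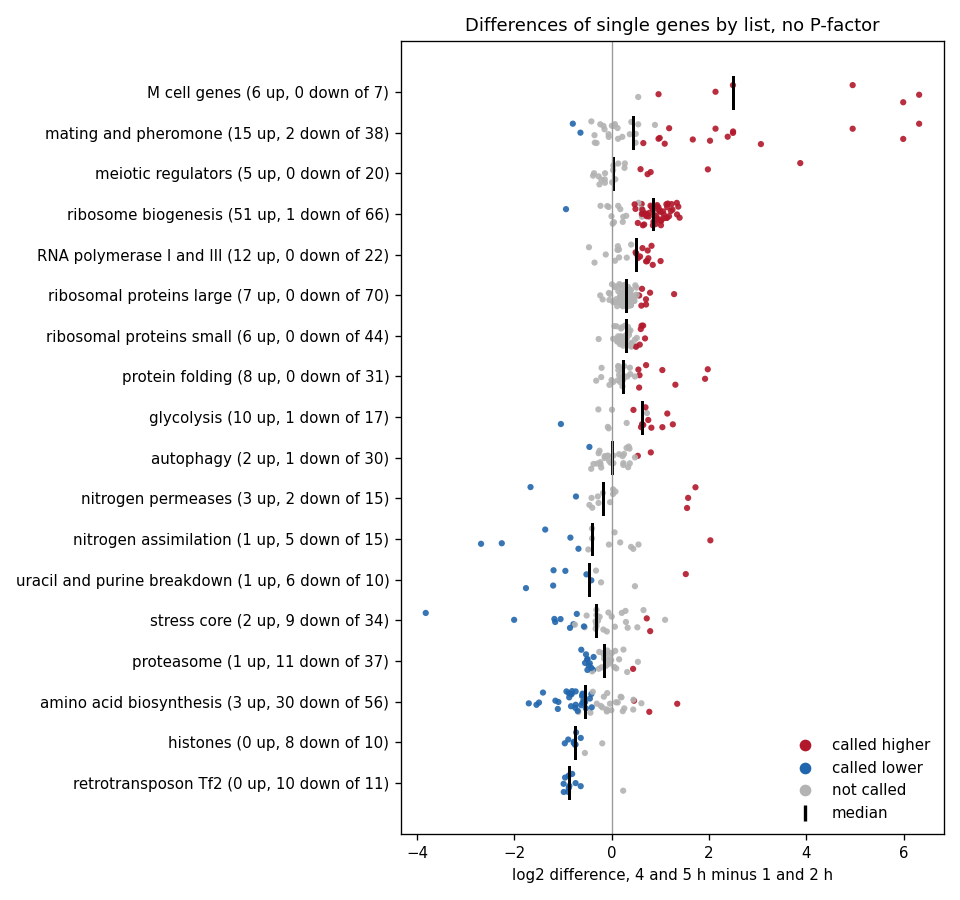
Each point is the log2 difference (4 and 5 h minus 1 and 2 h) of a gene on 1 of 18 lists, red where called higher, blue where called lower and grey where not called, with a black bar at the median of the list; points are spread within a row only for display. The M cell genes reach furthest right, ribosome biogenesis lies almost wholly right of 0, and amino acid biosynthesis, histones and Tf2 lie mostly left.

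Genes of amino acid biosynthesis were mostly lower at 4 and 5 h, from early levels that were already slightly below growing cells in the median. Of 56 genes measured 30 fell and 3 rose (5 without the 2 h array of series 1). Shares of 53.6% lower and 5.4% higher compare with 9.72% and 16.2% of all genes. The median difference was -0.54, with levels of -0.69 at 4 and 5 h, against -0.28 at 1 and 2 h (medians of the list). met6, of methionine synthesis, had 0.42, -0.41, -0.08 and -0.18 at 4 and 5 h, against 1.83, 1.34, 1.76 and 1.63 at 1 and 2 h. It lay well above growing cells early and near them later, and its difference was -1.70 ± 0.19 (adjusted p = 2.16e-06). lys12, of the lysine pathway, had -1.93, -1.81, -1.26 and -1.16 at 4 and 5 h, against -0.15, -0.42, 0.29 and 0.29 at 1 and 2 h, with a difference of -1.54 ± 0.20 (adjusted p = 1.12e-05). lys3, hom3 and eca39, the last a transaminase of branched-chain amino acids, differed by -1.49 ± 0.16, -1.41 ± 0.17 and -1.16 ± 0.16. Against this trend lys7 rose by 1.35 ± 0.21 (adjusted p = 8.82e-05), his6 by 0.78 ± 0.14 (adjusted p = 0.00046) and cys12 by 0.46 ± 0.16 (adjusted p = 0.0408). The call of cys12 was lost without the 1 or 5 h array of series 1 or the 1, 2, 4 or 5 h array of series 2, with 0.28 to 0.49 then.

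Genes for the use of amino acids and ammonium as nitrogen sources included 2 of the larger falls, gdh1 and car1. Of 15 genes of nitrogen assimilation 5 fell and 1 rose, or 2 without the 2 or 5 h array of series 2 (median -0.40). In this list 33.3% fell and 6.7% rose, against 9.72% and 16.2% of all genes. gdh1, the glutamate dehydrogenase that fixes ammonium, had -1.01, 1.47 and 0.76 at 4 and 5 h, against 2.45, 0.82, 4.21 and 3.16 at 1 and 2 h. The 5 h array of series 1 has no value for gdh1 and the fit drops it. Series 2 was the higher in both periods, the periods separated within each series, and the difference was -2.68 ± 0.18 (adjusted p = 5.08e-09). car1, arginase, had -0.18, -0.27, 0.61 and 0.15 at 4 and 5 h, against 2.73, 1.78, 3.002 and 1.83 at 1 and 2 h, without overlap, and a difference of -2.26 ± 0.17 (adjusted p = 6.38e-09). put2, of proline breakdown, differed by -1.36 ± 0.16 (adjusted p = 5.44e-06), car2, ornithine transaminase, by -0.85 ± 0.15 (adjusted p = 0.000364), and caa1 by -0.68 ± 0.16 (adjusted p = 0.00297). The 1 rise was in uga1, the transaminase of 4-aminobutyrate, with 2.44, 1.79, 3.77 and 3.42 at 4 and 5 h, against 1.08, 1.15, 0.42 and 0.66 at 1 and 2 h. It rose more in series 2 than in series 1, by 3.06 against 1.002, and its difference was 2.03 ± 0.36 (adjusted p = 0.000355). With series 1 alone uga1 was not called.

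The listed nitrogen permeases followed no single direction. Of 15 measured 3 rose and 2 fell, shares of 20.0% and 13.3%, against 16.2% and 9.72% of all genes. An amino acid transporter that is not on this list, aat1, fell by 2.02. isp4, an oligopeptide transporter, had 4.41, 4.62, 6.11 and 6.58 at 4 and 5 h, against 3.37, 3.52, 4.31 and 4.22 at 1 and 2 h, already high at 1 h, and rose by 1.57 ± 0.19 (adjusted p = 5.44e-06). per1, an amino acid permease, rose by 1.55 ± 0.25 (adjusted p = 0.000131), and ptr2, a peptide transporter, by 1.72 ± 0.54 (adjusted p = 0.0242), with 0.43 in series 1 and 3.02 in series 2. The call of ptr2 was lost without the 1, 2, 4 or 5 h array of series 2, with 1.05 to 1.48 then. agp3 fell by 1.67 (adjusted p = 0.00106) and cat1, a transporter of basic amino acids, by 0.73 (adjusted p = 0.00224). fnx1, a vacuolar transporter long known as induced by nitrogen loss, had 1.56, 1.71, 2.0 and 2.14 at 4 and 5 h, against 1.60, 2.35, 1.94 and 3.11 at 1 and 2 h. It was high throughout and its difference of -0.40 ± 0.19 did not pass (adjusted p = 0.132).

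Nucleoside breakdown peaked at 2 h. Of 10 genes of uracil and purine breakdown and salvage 6 fell and 1 rose, shares of 60.0% and 10.0%, against 9.72% and 16.2% of all genes. By hour the median of the list was 1.15 at 1 h, 2.25 at 2 h, 1.87 at 3 h, 1.23 at 4 h, 0.84 at 5 h and 0.45 at 8 h. urh1, a uridine hydrolase, was among the most raised genes, with 5.01, 4.18, 5.23 and 4.08 at 4 and 5 h, against 5.91, 6.74, 6.14 and 6.74 at 1 and 2 h. The difference was -1.76 ± 0.21 (adjusted p = 5.44e-06), so urh1 remained far above growing cells. urg1, a uracil-regulated gene, had 5.96, 5.48, 7.24 and 5.71 at 4 and 5 h, against 6.53, 8.34, 5.85 and 8.46 at 1 and 2 h, with a difference of -1.20 ± 0.31 (adjusted p = 0.00787). The periods of urg1 overlapped, because its 1 h arrays lay far below its 2 h arrays, and its call was lost without the 1 or 4 h array of series 1, with -0.90 to -0.94 then. apt1, adenine phosphoribosyltransferase, went the other way, with -3.56, -2.60, -2.85 and -2.76 at 4 and 5 h, against -5.001, -3.75, -4.65 and -4.47 at 1 and 2 h and a rise of 1.52 ± 0.21 (adjusted p = 2.92e-05). Between 3 and 6 genes of the list fell when single arrays were left out, 3 without the 4 h array of series 1 and 4 without the 1, 2 or 5 h array of series 1 or the 2 or 5 h array of series 2. Of 14 genes of purine synthesis 2 rose, prs1 by 0.69 ± 0.16 and ade9 by 0.45 ± 0.13, and 1 fell (none without the 4 or 5 h array of series 1 or the 1, 2, 4 or 5 h array of series 2 and 2 without the 1 h array of series 1). For purine synthesis 14.3% rose and 7.1% fell, against 16.2% and 9.72% of all genes. The call of ade9 was lost without the 1 or 4 h array of series 1 or the 5 h array of series 2, with 0.33 to 0.43 then.

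The largest falls of all were in genes outside the nutrient lists. cta3, a P-type cation-transporting ATPase induced by stress, had 1.12, 0.69, 0.24 and 0.15 at 4 and 5 h, against 4.73, 4.42, 4.37 and 3.97 at 1 and 2 h. Within each array series it lay more than 3 log2 units lower at 4 and 5 h, and the difference was -3.82 ± 0.25 (adjusted p = 1.69e-09), 14.1-fold. The neighbouring genes SPBC1271.08C and SPBC1271.07C differed by -3.54 ± 0.23 (adjusted p = 1.69e-09) and -2.998 ± 0.18 (adjusted p = 1.6e-09). SPBC1271.07C had 0.54, 0.30, 2.23 and 1.49 at 4 and 5 h, against 3.76, 2.78, 5.16 and 4.85 at 1 and 2 h. Series 2 was higher than series 1 in both periods, and no middle array reached an early one. A second run of neighbours held alr2, an alanine racemase, with -2.61, -2.99, -0.24 and -0.49 at 4 and 5 h, against 0.85, -0.36, 2.81 and 1.998 at 1 and 2 h and a difference of -2.90 ± 0.29 (adjusted p = 5.06e-07), and aat1, an amino acid transporter, with -0.12, -0.76, 0.29 and 0.32 at 4 and 5 h, against 2.42, 1.35, 2.86 and 1.20 at 1 and 2 h and -2.02 ± 0.22 (adjusted p = 1.96e-06). In alr2 the arrays of the 2 periods overlapped between series and not within them.

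dgc1 had 2.33, 2.26, 2.22 and 1.91 at 4 and 5 h, against 8.30, 3.10, 6.40 and 2.46 at 1 and 2 h, with 1 h far above 2 h in both series, and a difference of -2.88 ± 0.32 (adjusted p = 2.1e-06). Among the other large falls were SPCC18B5.02C at -2.85 ± 0.28, SPBC1683.12 at -2.66 ± 0.36, SPCC70.08C at -2.65 ± 0.32, SPAC11D3.01C at -2.46 ± 0.65, SPAC186.06 at -2.33 ± 0.26, and aca1 at -2.02 ± 0.20. The call of SPAC11D3.01C was lost without the 2 h array of series 2, with -1.99 then.

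**Figure D4:**
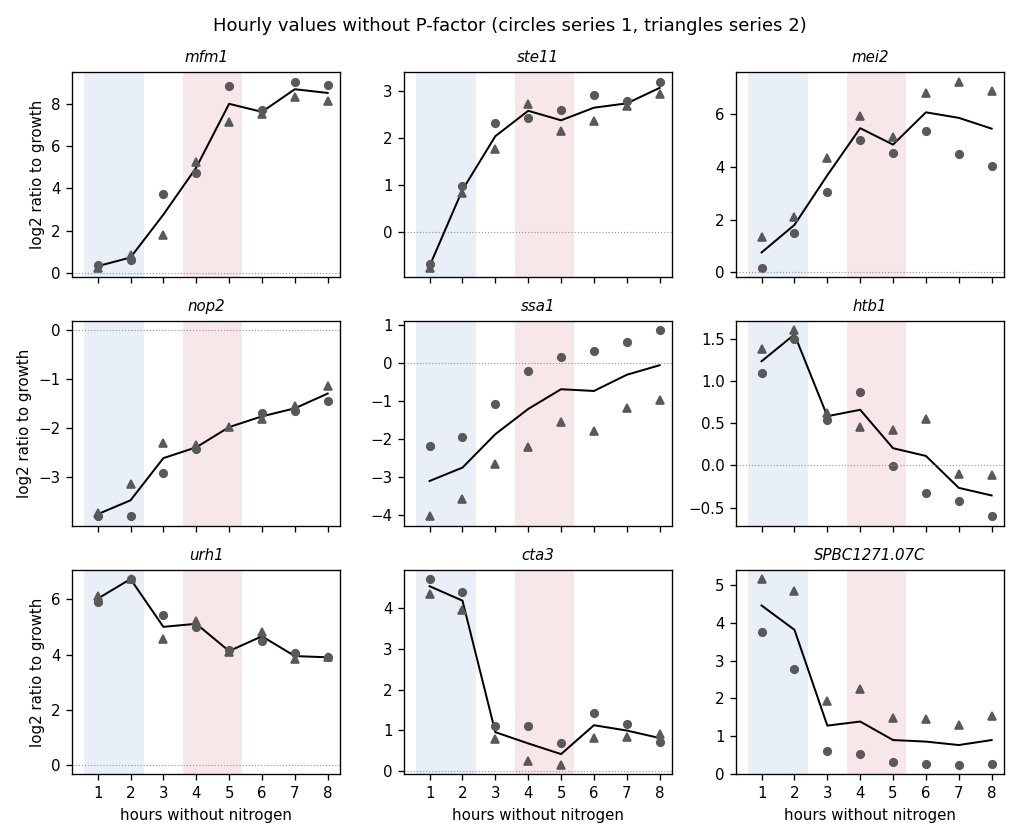
Log2 ratio to growing cells (y axis) of 9 genes at each hour from 1 to 8 h without nitrogen or P-factor (x axis), with series 1 as circles, series 2 as triangles, the mean as a line, and 1 and 2 h shaded blue and 4 and 5 h red. mfm1, ste11 and mei2 climb through 3 h, cta3 and SPBC1271.07C drop between 2 and 3 h and stay low, the means of nop2 and ssa1 climb from 1 to 5 h, and htb1 and urh1 are highest at 2 h and lower at every hour from 3 h on.

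Most stress and chaperone genes were not called, but stress genes fell, and chaperone genes rose, in larger shares than all genes. Of 34 core stress genes 9 fell and 2 rose (median -0.31, with -0.03 in series 1 and -0.50 in series 2). The 26.5% that fell compares with 9.72% of all genes. After cta3 the largest falls were in gst2, a glutathione transferase, at -2.003 ± 0.25 (adjusted p = 6.59e-06), srx1, sulfiredoxin, at -1.16 ± 0.29 (adjusted p = 0.00611), gpd1, of glycerol synthesis, at -1.05 ± 0.31 (adjusted p = 0.0168), and zwf1, the entry enzyme of the pentose phosphate pathway, at -0.86 ± 0.18 (adjusted p = 0.00155). The call of srx1 was lost without the 5 h array of series 2, with -0.82 then, and that of gpd1 without the 2, 4 or 5 h array of series 2, with -0.89 to -1.01 then. The number that fell was 5 without the 1 or 4 h array of series 1 or the 2, 4 or 5 h array of series 2, and 1 without the series as a block. dak1, a dihydroxyacetone kinase, rose by 0.79 ± 0.22 (adjusted p = 0.0121) and the disaggregase hsp104 by 0.72 ± 0.26 (adjusted p = 0.0443). The call of dak1 was lost without the 5 h array of series 1 or the 4 h array of series 2, with 0.66 to 0.71 then, and that of hsp104 without the 1, 2, 4 or 5 h array of series 1 or the 2 or 4 h array of series 2, with 0.48 to 0.82 then.

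Of 31 genes of protein folding 8 rose and none fell (median 0.24, and -0.03 under quantile normalization). The 25.8% that rose compares with 16.2% of all genes. The Hsp70 genes led. ssa1 had -0.20, 0.16, -2.22 and -1.54 at 4 and 5 h, against -2.18, -1.94, -4.03 and -3.57 at 1 and 2 h, with series 2 lower than series 1 in both periods, and rose by 1.98 ± 0.18 (adjusted p = 1.3e-07). ssa2 had -0.83, -0.14, -2.65 and -1.85 at 4 and 5 h, against -2.56, -2.36, -4.20 and -4.04 at 1 and 2 h and rose by 1.92 ± 0.13 (adjusted p = 1.69e-09). Both are close relatives, so their probes may share signal. hsp90 rose by 1.31 ± 0.15 (adjusted p = 2.64e-06), mas5, an Hsp40, by 1.04 ± 0.19 (adjusted p = 0.00045), wis2, a cyclophilin, by 0.71 ± 0.18 (adjusted p = 0.0057), and cct6, of the chaperonin ring, by 0.57 ± 0.15 (adjusted p = 0.00957). All 6 had lain below growing cells early and were still below them or close to them at 4 and 5 h.

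Histone genes fell together. Of 10 measured 8 fell and none rose, with a median difference of -0.75, and for 6 all middle arrays lay below all early ones. Of all genes 9.72% fell, and for 4.95% all middle arrays lay below. By hour the median of the list was 1.26 at 1 h, 1.62 at 2 h, 0.72 at 3 h, 0.70 at 4 h, 0.59 at 5 h and 0.08 at 8 h. htb1, histone H2B, had 0.87, -0.01, 0.45 and 0.42 at 4 and 5 h, against 1.09, 1.50, 1.38 and 1.60 at 1 and 2 h, and differed by -0.96 ± 0.16 (adjusted p = 0.000154). hta2, histone H2A, had 0.94, 0.77, 0.88 and 0.74 at 4 and 5 h, against 1.41, 1.78, 1.34 and 1.92 at 1 and 2 h and differed by -0.78 ± 0.13 (adjusted p = 0.000245). hhf1, hhf2 and hhf3, which encode the same histone H4, differed by -0.75 ± 0.13, -0.77 ± 0.16 and -0.89 ± 0.16, values that are not independent. The 2 genes without a call were hht3 (-0.55 ± 0.21) and pht1, the variant H2A.Z (-0.19 ± 0.19). In these genes the early arrays stood above growing cells and the middle arrays nearer to them.

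The genes of the G1 to S step did not move as 1 group. Of 36 measured 5 fell and 2 rose, with a median of -0.15 that stood at 0.03 in series 2. That is 13.9% lower and 5.6% higher, against 9.72% and 16.2% of all genes. The number that fell was 3 without the 1 or 4 h array of series 1, and none with series 2 alone, and the number that rose was 1 without the 4 h array of series 2. nrm1, a repressor of G1/S transcription, differed by -1.02 ± 0.18 (adjusted p = 0.000335), and res1 and rep2, of the MBF transcription factor, by -0.996 ± 0.18 and -0.81 ± 0.19. cdc45, a subunit of the replicative helicase, had -1.20, -1.07, -1.11 and -1.32 at 4 and 5 h, against -2.20, -1.97, -1.89 and -2.48 at 1 and 2 h, and rose by 0.96 ± 0.17 (adjusted p = 0.000396). Of 33 genes of mitosis and septation cut7, a kinesin, rose by 1.12 ± 0.21 (adjusted p = 0.00045), 1 other rose and ark1, aurora kinase, fell by 0.55. Those shares, 6.1% higher and 3.0% lower, were below the 16.2% and 9.72% of all genes. The call of ark1 was lost without the 1, 2 or 5 h array of series 1 or the 4 or 5 h array of series 2, with -0.39 to -0.59 then, and the number that rose was 1 without the 1 h array of series 1 or the 2, 4 or 5 h array of series 2, while the number that fell was 3 without the 2 h array of series 2. Of 19 genes of cell cycle control by Cdc2 cdc25 rose by 0.50 ± 0.15 (adjusted p = 0.0192) and ddb1 by 0.50 ± 0.13 (adjusted p = 0.00898), and none fell. Here too the share that rose, 10.5%, was below the 16.2% of all genes. The call of cdc25 was lost without the 1 h array of series 1 or the 2, 4 or 5 h array of series 2, with 0.44 to 0.50 then, and that of ddb1 without the 4 or 5 h array of series 2, with 0.40 to 0.41 then.

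Sequences of the Tf2 retrotransposon, repeated in the genome, were lower for 10 of 11 genes measured (90.9%, against 9.72% of all genes), with a median of -0.88. Tf2-11 had 0.70, 0.89, 1.22 and 1.26 at 4 and 5 h, against 2.32, 0.65, 2.86 and 2.18 at 1 and 2 h, and differed by -0.99 ± 0.19 (adjusted p = 0.000645). The 2 h array of series 1 lay below the other 3 early arrays. The copies are near-identical, so the 10 calls are not independent of each other. Without the 2 h array of series 2 only 5 fell, and with series 1 alone none.

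In carbon metabolism, 10 of 17 genes of glycolysis and fermentation rose and 1 fell, with a median of 0.63 (0.33 in series 1 and 0.89 in series 2). Compared with 16.2% and 9.72% of all genes, 58.8% of the list rose and 5.9% fell. pdc101, pyruvate decarboxylase, had -0.15, 0.10, -0.05 and -0.50 at 4 and 5 h, against -1.12, -0.67, -1.60 and -2.25 at 1 and 2 h and rose by 1.26 ± 0.28 (adjusted p = 0.00209). eno101, enolase, rose by 1.14 ± 0.30 (adjusted p = 0.00751), a call lost without the 2 h array of series 2, with 0.81 then, and pgk1, phosphoglycerate kinase, by 1.04 ± 0.22 (adjusted p = 0.00162). The alcohol dehydrogenase gene adh4 fell by 1.04 (adjusted p = 0.00045). Without the 2 or the 4 h array of series 2 the number that rose was 3 and 4, without the 5 h array of series 1 or the 1 h array of series 2 it was 6, and with series 1 alone it was 0.

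Of 21 genes of hexose transport and other carbon use 3 rose and 2 fell. These shares, 14.3% and 9.5%, are near the 16.2% and 9.72% of all genes. ght5, the main hexose transporter, had -0.85, -0.59, 0.47 and 0.88 at 4 and 5 h, against -2.32, -0.95, -1.77 and -0.08 at 1 and 2 h, with the 1 h arrays lowest, and rose by 1.26 ± 0.19 (adjusted p = 6.39e-05). ght6 rose by 1.25 ± 0.22 (adjusted p = 0.000362), and ght7 fell by 1.45 (adjusted p = 0.000671). The ght genes are alike, and their probes may share signal. Of 19 genes of the citric acid cycle 3 rose, among them sdh2 by 0.72 ± 0.18, and 4 fell, among them pdb1 by 0.65. The shares were 15.8% higher and 21.1% lower, against 16.2% and 9.72% of all genes. The call of sdh2 was lost without the 1 or 2 h array of series 2, with 0.53 to 0.56 then. Of 31 genes of the respiratory chain 6 rose, qcr6 the most by 0.57 ± 0.13 (adjusted p = 0.00291), and none fell, and of 53 mitochondrial ribosomal proteins 3 rose and 2 fell. In these 2 lists 19.4% and 5.7% rose, against 16.2% of all genes. Single arrays moved these counts. For the citric acid cycle the number that rose was none without the 2 h array of series 2 and 1 without the 1 or 4 h array of series 2, and the number that fell was 1 without the 4 h array of series 1 or the 1, 2, 4 or 5 h array of series 2 and 2 without the 1, 2 or 5 h array of series 1. For the respiratory chain the number that rose was 3 without the 2 or 5 h array of series 2. For the mitochondrial ribosome the number that rose was none without the 1 h array of series 1 or the 1, 2 or 5 h array of series 2 and 1 without the 4 h array of series 2, and the number that fell was 1 without the 1, 2 or 5 h array of series 1 or the 1 or 5 h array of series 2.

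Genes of autophagy and vacuolar breakdown were high early, and few were called between the periods. Of 30 autophagy genes 2 rose, atg1802 by 0.81 ± 0.17 (adjusted p = 0.00128) and atg12 by 0.54 ± 0.18 (adjusted p = 0.0337), and atg14 fell by 0.46 (adjusted p = 0.0322). With 6.7% higher and 3.3% lower, the list lay below the 16.2% and 9.72% of all genes. The call of atg12 was lost without the 1, 4 or 5 h array of series 1 or the 2 or 4 h array of series 2, with 0.38 to 0.58 then, and that of atg14 without the 1, 2 or 5 h array of series 1 or the 1, 2, 4 or 5 h array of series 2, with -0.38 to -0.50 then. The median difference was 0.01, and the median level of the list lay between 1.31 and 1.43 at every hour from 1 to 8 h. Of 5 vacuolar protease genes 1 rose (none without the 5 h array of series 1 or the 2 or 4 h array of series 2) and 1 fell. Each is 20.0% of so small a list, against 16.2% of all genes higher and 9.72% lower. isp6, a vacuolar serine protease, had 5.94, 5.79, 6.84 and 5.80 at 4 and 5 h, against 6.57, 6.61, 6.24 and 6.90 at 1 and 2 h. It was among the most raised genes in both periods, the groups overlapped, and the small fall of 0.49 (adjusted p = 0.0297) stood at 0.11 when arrays were scaled to equal spread. Its call was lost without the 1, 2 or 4 h array of series 1 or the 2 or 5 h array of series 2, with -0.30 to -0.50 then. Of 37 proteasome genes 11 fell and 1, cut8, rose by 0.44 ± 0.15 (median -0.15). The shares were 29.7% lower and 2.7% higher, against 9.72% and 16.2% of all genes. Among those that fell were ump1 at -0.62 ± 0.13 (adjusted p = 0.00179), pre1 at -0.55 ± 0.12 (adjusted p = 0.00201) and pre10 at -0.53 ± 0.11 (adjusted p = 0.0014). With series 2 alone 1 fell and with series 1 alone none, where 3.43% and 3.18% of all genes fell. The number that fell lay between 4 and 9 when single arrays were left out, lowest without the 1 h array of series 1, and was 5 without the 4 h array of series 1, 6 without the 2 or 5 h array of series 1 or the 5 h array of series 2, and 7 without the 2 h array of series 2. The call of cut8 was lost without the 1, 2 or 4 h array of series 1 or the 2 or 4 h array of series 2, with 0.38 to 0.45 then, and also on values as deposited, with scaled arrays and under quantile normalization.

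The same hours were also measured in the cells given P-factor. There 1667 genes were called (34.8%), 1082 higher (22.6%) and 585 lower (12.2%), and the median difference of all genes was 0.104. Ribosome biogenesis had 48 higher and 2 lower with P-factor, against 51 and 1 without, and amino acid biosynthesis had 7 higher and 26 lower, against 3 and 30. The M cell list had 6 higher in each condition. ste11 differed by 2.81 ± 0.15 with P-factor and 2.39 ± 0.15 without, mei2 by 4.47 ± 0.41 and 3.88 ± 0.41, mam2 by 5.40 ± 0.38 and 4.96 ± 0.38, and cta3 by -3.10 ± 0.25 and -3.82 ± 0.25. For bqt1 the values were 1.08 ± 0.23, called, against 0.05 ± 0.23, and for kms1 1.06 ± 0.14, called, against 0.34 ± 0.14. The difference between conditions was not called for any of these genes, so they are not shown to differ.

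The difference of the changes, with P-factor minus without, was called for 17 genes (0.355% of those tested), 12 higher with P-factor (0.251%) and 5 lower (0.104%). mam3, which lets M cells adhere to P cells, differed by 3.94 ± 0.32 with P-factor and 0.49 ± 0.32 without, a difference of 3.45 ± 0.45 (adjusted p = 0.00092). shk2, a p21-activated kinase, had 3.06 ± 0.32 and -0.06 ± 0.32, with a difference of 3.12 ± 0.44 (adjusted p = 0.00201). dni1 and dni2, which act in cell fusion, had differences of 2.04 ± 0.41 and 3.10 ± 0.54 (adjusted p = 0.039 and 0.0121). None of these 4 was called without P-factor, and none of the 15 mating genes that rose without P-factor was called for the difference between conditions. sck2, a kinase of nutrient signalling, rose by 1.88 ± 0.15 with P-factor and by 0.50 ± 0.15 without, and for top2, topoisomerase II, the changes differed by 1.09 ± 0.22 (adjusted p = 0.039). The call of sck2 without P-factor was lost without the 4 h array of series 1 or the 1, 2 or 5 h array of series 2, with 0.33 to 0.50 then.

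In the other direction uga1 differed by -0.82 ± 0.36 with P-factor, against 2.03 ± 0.36 without, a difference of -2.85 ± 0.52 (adjusted p = 0.0139). SPCC584.13 and SPBC8E4.04 had -0.39 ± 0.26 and -0.49 ± 0.15 with P-factor, against 1.34 ± 0.26 and 0.94 ± 0.15 without, where both were called higher. gal1, galactokinase, had -0.66 ± 0.19 with P-factor and 0.61 ± 0.19 without, and hpt1, a purine salvage enzyme, had -1.33 ± 0.14 and -0.42 ± 0.14. Without P-factor the call of gal1 was lost without the 1, 2, 4 or 5 h array of series 2, with 0.38 to 0.53 then, and that of hpt1 without the 1, 2, 4 or 5 h array of series 1 or the 2 or 5 h array of series 2, with -0.30 to -0.45 then. The number of genes called was 9 with series 1 alone on the side without P-factor and 2 with series 2 alone.

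**Figure D5:**
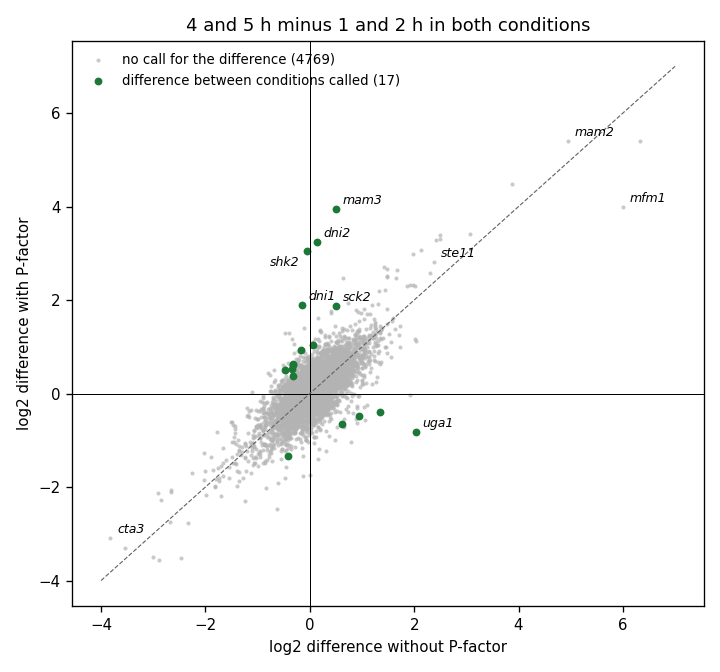
Each point is a gene, placed by its log2 difference (4 and 5 h minus 1 and 2 h) without P-factor (x axis) and with P-factor (y axis), and the dashed line marks equal values; the 17 green genes are those for which the difference between conditions was called. mam3, shk2, dni2 and dni1 lie far above the line near 0 without P-factor, and uga1 lies far below it.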

How the data were processed

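The deposited table holds 1 value for each probe and array, which per the labels are ratios of starved (Cy5) over growing (Cy3) cells on 2-colour arrays, and the values were taken as log2 ratios. Which log base the authors used, and how they corrected background and normalized, is not given in the sources here. The spread of the deposited values is too wide for base 10, base 2 is the convention, and with a natural log every fold would differ in size. The labels name no dye swap, so ratios to growing cells may carry the bias of a dye.

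Of 5188 probes 4868 have 1 gene in the platform annotation, 22 several and 298 none. Gene names come from that annotation and RefSeq (ASM294v3). Probes of a gene were averaged (4 of 4819 genes), and 0.456% of values were missing. Each array was centred on its median, which lay between -0.154 and 0.091. Arrays have no read depth. Precision is limited by the number of arrays. Genes on at least 24 of 32 arrays and 3 of 4 arrays in each period were tested (4786). limma 3.58.1 in R 4.3.3 fitted a mean for each of the 16 groups and the array series as a fixed block on all 32 arrays (14 residual and 6.05 prior degrees of freedom), with two-sided tests and Benjamini-Hochberg adjustment. Every ± is a standard error. Arrays of a series deviated together from the hourly means (correlations over genes of 0.5 to 0.7 between hours), which is why the series entered as a block. On simulated data for this comparison with 4786 genes, 74% of changes of 1 and 96% of changes of 2 were recovered, and 5.03% of 179 calls were false.

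The members, the gene lists and the tests were chosen with earlier results of these data known. Genes were named by this rule: the 15 called genes with the largest difference in each direction and the same sign in both series, up to 6 called members of each of 37 lists and those of a minority direction, 17 genes of the study, and up to 6 genes in each direction of the difference between conditions. spk1, ste6, map3, sxa1, hht3 and pht1 were added after their values were seen. Alternatives changed the centring, the block, the samples in the fit, the filter, and left out series or single arrays. No sequences are shown.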

Additional observations from a re-analysis of the deposited data

Results flagged for a closer look

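In 3 of 123 sets of 4 arrays checked, 1 array lay far from the other 3, and chance alone gives about 1 in 20. For isp6 the 4 h array of series 2 had 6.838, against 5.787 to 5.94 on the other middle arrays. For ctr4, a copper transporter, the 2 h array of series 1 had -1.305, against -5.07 to -4.57 on the other early arrays. For nop2 the 2 h array of series 2 had -3.147, against -3.8 to -3.722 on the other early arrays.

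For 17 genes the change between periods differed between conditions by the test of that difference, given here as the log2 difference with P-factor minus that without it. It was above 0 for mam3 at 3.451, shk2 at 3.119, dni2 at 3.102, dni1 at 2.035, sck2 at 1.38, top2 at 1.093, SPAC29B12.11C at 0.985, cti1 at 0.968, yam8 at 0.953, rer1 at 0.919, cps3 at 0.857 and SPAC926.06C at 0.709. It was below 0 for uga1 at -2.846, SPCC584.13 at -1.728, SPBC8E4.04 at -1.431, gal1 at -1.269 and hpt1 at -0.916. Strain and pheromone cannot be told apart in these values.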

How the results depend on the processing

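Without the replicate block 543 genes were called (7.98% of genes tested higher and 3.36% lower, against 16.2% and 9.72% with it), and 4 for the difference between conditions. Leaving out a whole series or a single array gave 379 to 1048 called genes, with 4.74% to 14.2% of genes higher and 3.18% to 8% lower, and leaving out a series gave 2 and 9 for the difference between conditions. The other settings gave 1049 to 1292 called genes and 13 to 23 for the difference between conditions. In no setting was a gene called in both it and the reported fit with opposite signs. Of 206 named genes with a call, 56 kept it in every alternative that gave a value. Scaling the arrays to equal spread turned isp6 to 0.112, and quantile normalization turned tif11 to -0.035 and the medians of the large and small ribosomal subunit genes to -0.09 and -0.055 and of protein folding to -0.029. The cause was not tested. Signal over background is not given for these arrays, so weak spots could not be told from strong ones.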

Other observations

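Of 26 genes of iron, copper and zinc handling 4 rose and 2 fell, with a median difference of 0.08, and the 15.4% that rose is near the 16.2% of all genes. Of the 4 that rose, 3 encode copper transporters, a grouping made after their values were seen. ctr5, a subunit of the copper transporter of the plasma membrane, had 0.59, 0.58, -0.96 and -0.54 at 4 and 5 h, against -2.001, 0.27, -2.81 and -2.65 at 1 and 2 h, and rose by 1.72 ± 0.32 (adjusted p = 0.000533). ctr4, its partner, had 0.12, -0.54, -3.92 and -3.19 at 4 and 5 h, against -4.57, -1.30, -5.07 and -4.73 at 1 and 2 h, and rose by 2.04 ± 0.51 (adjusted p = 0.00559). In ctr4 and ctr5 the 2 h array of series 1 stood high among the early arrays, and ctr4 lost its call without the 1 h array of series 1, with 1.33 then. ctr6, the vacuolar copper transporter, rose by 1.56 ± 0.26 (adjusted p = 0.000152) and str1, a siderophore transporter, by 1.34 ± 0.27 (adjusted p = 0.00108). shu1, which takes up heme, fell by 1.81 (adjusted p = 0.0103), with -0.18 in series 1 and -3.44 in series 2, and its call was lost without the 1, 2, 4 or 5 h array of series 2, with -0.78 to -1.58 then, and in a fit of the 8 arrays alone. php3, a subunit of the CCAAT-binding factor, fell by 0.89 (adjusted p = 0.000199).

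Of 30 cell wall genes 5 rose (16.7%, near the 16.2% of all genes) and none fell, with a median of -0.03. The number that rose was 2 without the 2 or 4 h array of series 2 and 3 without the 1 h array of series 2. bgs1, a glucan synthase that builds the septum, had 0.82, 0.82, 1.41 and 1.77 at 4 and 5 h, against 0.03, -0.13, 0.45 and 0.12 at 1 and 2 h, and rose by 1.09 ± 0.15 (adjusted p = 2.14e-05). Of 32 genes of sterol and lipid synthesis 7 fell and 1 rose (none without the 1 or 4 h array of series 1). In that list 21.9% fell and 3.1% rose, against 9.72% and 16.2% of all genes. erg31 and erg32, sterol desaturases, differed by -1.30 ± 0.21 (adjusted p = 0.000124) and -1.06 ± 0.14 (adjusted p = 1.84e-05), and erg6, a sterol methyltransferase, by -1.07 ± 0.15 (adjusted p = 4.12e-05), with -0.01, -0.46, 0.54 and 0.38 at 4 and 5 h, against 1.26, 0.88, 1.51 and 1.07 at 1 and 2 h. The 4 middle arrays of erg6 lay below all early ones.

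Of 10 phosphate genes 3 rose and 1 fell, with vtc4, of polyphosphate synthesis, at 0.80 ± 0.17 (adjusted p = 0.0017) and pho842 at -0.45 ± 0.14 (adjusted p = 0.026). This list had 30.0% higher and 10.0% lower, against 16.2% and 9.72% of all genes. The number that rose was 1 without the 4 h array of series 1 or the 5 h array of series 2. The call of pho842 was lost without the 1 or 5 h array of series 1 or the 1, 2, 4 or 5 h array of series 2, with -0.36 to -0.47 then, and also under quantile normalization and in a fit of the 8 arrays alone. Of 39 genes of TOR and nutrient signalling 7 rose and 5 fell, and the median was 0.01. These shares, 17.9% and 12.8%, compare with 16.2% and 9.72% of all genes. wis1, the kinase that activates the stress MAP kinase, had 0.37, 0.40, 0.57 and 0.53 at 4 and 5 h, against -0.45, -0.41, -0.28 and -0.08 at 1 and 2 h, without overlap, and rose by 0.77 ± 0.13 (adjusted p = 0.000136). wat1, a shared subunit of both TOR complexes, had -0.70, -0.78, -0.53 and -0.64 at 4 and 5 h, against 0.33, 0.03, 0.10 and -0.01 at 1 and 2 h, and fell by 0.78 (adjusted p = 0.0002). With single arrays left out, 2 to 7 genes of this list rose and 1 to 3 fell, with 2 higher without the 1 h array of series 2, 3 without the 4 or 5 h array of series 1 or the 2 h array of series 2, and 4 without the 1 h array of series 1 or the 4 h array of series 2.

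Among genes that differed at least 2-fold there were 19 pairs of direct neighbours in the annotation, and in 15 both members moved the same way. mei2 lies beside omt2, which rose by 2.30 ± 0.27 (adjusted p = 4.04e-06), SPBC1271.08C beside SPBC1271.07C, and alr2 beside aat1. No test was made of this number. The 319 probes without a single gene had a median difference of -0.133, with 5th and 95th percentiles of -0.591 and 0.544.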
